A study of Mus musculus with 4 samples.

Results

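The ERK feedback genes examined here are Dusp1, Dusp4, Dusp5, Dusp6, Spry1, Spry2, Spry4, Spred1 and Spred2. They were chosen by symbol, 9 genes of the 18193 that had a probe set annotated with a single gene, and all 9 were measured. They are covered by 24 probe sets, and the probe set with the highest mean signal over the 4 arrays represents each gene. The arrays profiled sorted mouse cells, endothelial by their label, from collecting lymphatics downstream of a flank tumour. In the VEGFD group (2 arrays) the tumour was grown from 293EBNA cells, a human embryonic kidney-derived line, carrying a vector with the gene of the lymphatic growth factor VEGF-D. In the Apex group (2 arrays) the same cells carried the empty Apex vector, so both groups bore a human xenograft, grown to 2000 mm3. The labels used here call the 2 arrays of a group biological replicates. They name no mouse strain, age or pooling, and how much of the spread between arrays is technical is not known. The design asks how VEGF-D made by a tumour alters the endothelium of the lymphatics that carry fluid away from it.

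VEGF-D binds the receptors VEGFR-3 and VEGFR-2 on endothelium, and both pass the signal on through Ras, Raf and MEK to the kinase ERK. Active ERK turns on genes that shut the same pathway off. The Dusp genes encode phosphatases that strip the activating phosphates from ERK and its relatives p38 and JNK, while Sprouty and Spred proteins act upstream at the membrane, between the receptor and Raf. Several of these genes are themselves induced by ERK, and the transcripts of those are often read as a record of recent pathway activity. In mice, loss of both Spred1 and Spred2 disturbs the separation of lymphatic from blood vessels.

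The deposited values are linear signal intensities, 1 per probe set, and the median signal was 26.3 and 23.8 in VEGFD replicates 1 and 2 and 27.0 and 30.4 in Apex replicates 1 and 2. Cell type markers were uneven over the arrays. The summed signal of 12 pan-endothelial markers was 1201 and 484 in VEGFD replicates 1 and 2 and 744 and 4393 in Apex replicates 1 and 2, and Emcn alone gave 2670 of the last sum. Of the 12, 9 were highest on Apex replicate 2, Kdr and Eng on VEGFD replicate 1 and Tek on Apex replicate 1. The number above 25.3, the signal at which dim genes were filtered, was 6 and 3 in VEGFD replicates 1 and 2 and 5 and 11 in Apex replicates 1 and 2. Pecam1, Cdh5, Tie1, Erg and Robo4 were above it in Apex replicate 2 alone, and Kdr, Eng and Egfl7 on all 4 arrays.

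Of 8 lymphatic markers, 5 and 5 were above 25.3 in VEGFD replicates 1 and 2, and 4 and 6 in Apex replicates 1 and 2. Pdpn, Flt4, Itga9 and Nrp2 were above it on all 4 arrays, and Prox1, the defining transcription factor gene of this endothelium, was on none, at 3.19 and 5.94 in VEGFD arrays and 11.2 and 11.6 in Apex arrays. The sums of other lists were, in VEGFD replicates 1 and 2 and then in Apex replicates 1 and 2, 9366 and 18294 against 7517 and 8765 for 10 smooth muscle and pericyte markers, and 23056 and 23554 against 23623 and 20011 for 10 fibroblast markers. They were 3802 and 3111 against 6302 and 8033 for 5 adipocyte markers, 469 and 347 against 814 and 819 for 8 epithelial markers, and 654 and 807 against 790 and 718 for 9 leukocyte markers. Adipocyte and epithelial sums thus lay lower in both VEGFD arrays. No marker of these lists had a signal of 0, but no probe set did, with the lowest signal of an array at 0.027 to 0.061. A signal above 0 thus does not show that a marker was present. In such sorted material a difference in the number of cells of a type and a difference in RNA per cell cannot be told apart.

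No gene of the family passed the test between VEGFD and Apex arrays. Of the 9 genes, 6 had a higher and 3 a lower mean in VEGFD arrays, and 0 passed an adjusted p of 0.05 by limma over the 11677 tested genes, where the background was 0% of genes called. The same limma fit gave 1 member, Spry4, an unadjusted p under 0.05, where 666 of all tested genes (5.7%) had one. The median log2 change of the 9 genes was 0.39, beside -0.035 over all tested genes. With 2 arrays a group an exact permutation test has 3 splits and cannot go below p = 0.333, so it cannot separate any gene. Each log2 change below is the VEGFD mean minus the Apex mean of log2(signal + 16), a scale that understates the change of dim genes, and the errors are the standard errors (SE) of the limma fit with n = 2 and 2.

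The widest differences were between the VEGFD arrays, with VEGFD replicate 2 standing apart. That array held the highest value of 5 of the 9 genes (Dusp4, Dusp5, Dusp6, Spred1 and Spred2) and the lowest value of Dusp1 and Spry2. Over all tested genes it held the highest value for 29.6% and the lowest for 35.5%. The VEGFD arrays lay at least 2-fold apart for 5 of 9 members, against 12.1% of all tested genes, and the Apex arrays lay that far apart for 0 of 9 members, against 4.98% of all tested genes. For 7 members the gap between the VEGFD arrays was larger than the difference between the groups, as it was for 62.2% of all tested genes.

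**Figure D1:**
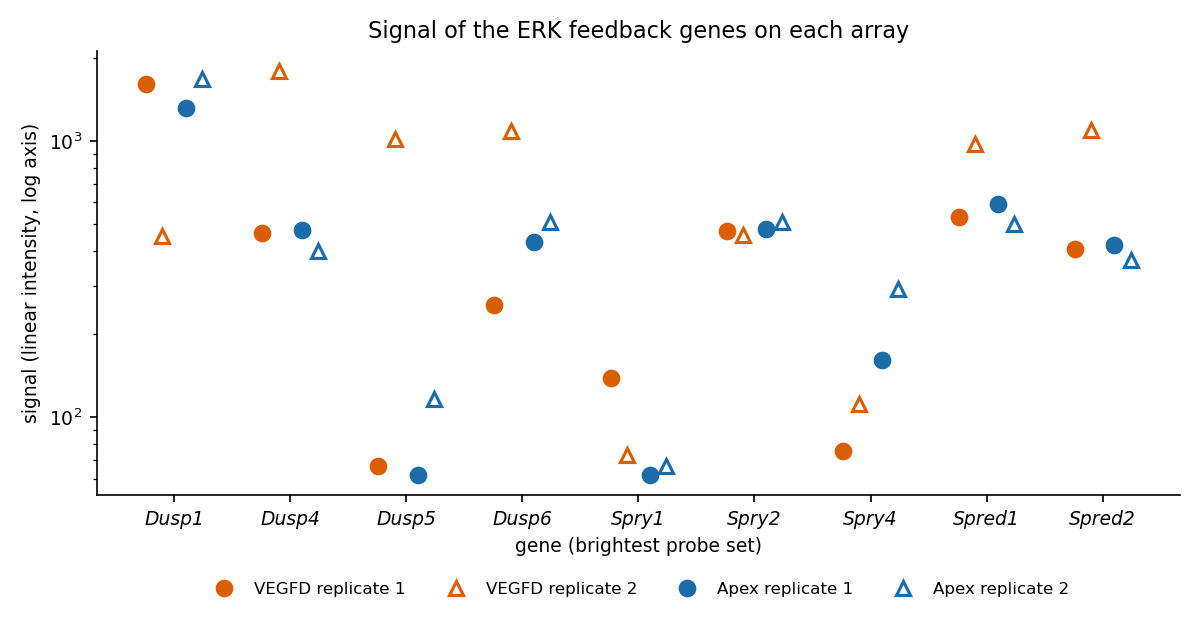
Signal of each ERK feedback gene on each array, by its brightest probe set, on a log axis; filled circles are replicate 1 and open triangles replicate 2, VEGFD in orange and Apex in blue. VEGFD replicate 2 stands apart from the other arrays for Dusp1, Dusp4, Dusp5, Dusp6, Spred1 and Spred2, and heights cannot be compared between genes because probe sets differ.

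Among the phosphatase genes, the widest spread was that of Dusp5, which encodes a nuclear phosphatase selective for ERK. Dusp5 had signals of 66.9 and 1016 in VEGFD replicates 1 and 2, against 61.8 and 117 in Apex replicates 1 and 2. A single array was high, and VEGFD replicate 1 lay between the Apex arrays. The mean signal was 541 ± 671 in VEGFD arrays and 89.3 ± 38.8 in Apex arrays (SD, n = 2 each). The log2 change was 1.53 ± 1.16 (adjusted p = 0.830). Leaving out VEGFD replicate 2 gave -0.29, and leaving out VEGFD replicate 1 gave 3.34, which passed (adjusted p = 0.0111). A fit without VEGFD replicate 1 holds no spread between VEGFD arrays and takes it from the Apex pair, and 372 of all tested genes passed in it.

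The 250 bases before the Dusp5 start site (chr19:53528895-53529144, GRCm38.p6, plus strand) are shown 5′ to 3′ from RefSeq because Dusp5 and Dusp1 lay furthest apart in opposite directions on VEGFD replicate 2. Capitals mark matches, on either strand, to the CArG box, which serum response factor binds, and to TGACG, the short site that CREB and its relatives bind.
Dusp5 promoter: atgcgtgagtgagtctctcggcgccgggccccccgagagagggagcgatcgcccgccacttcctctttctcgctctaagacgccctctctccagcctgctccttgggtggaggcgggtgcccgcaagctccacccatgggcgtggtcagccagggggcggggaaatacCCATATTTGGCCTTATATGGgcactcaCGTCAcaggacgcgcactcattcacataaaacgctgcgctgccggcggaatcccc
A pair of adjoining CArG boxes lay at -82 to -73 and at -72 to -63, counted from -1 at the base before the start site, and a TGACG on the minus strand lay at -55 to -51. A CArG box was present in 1.47% of the 32851 RefSeq promoter windows of this length, and TGACG in 17.8%. These matches are descriptions of the letters and were not tested as binding sites.

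Dusp4, which encodes another nuclear phosphatase, with ERK and JNK among its substrates, followed the same arrays. Its signals were 464 and 1795 in VEGFD replicates 1 and 2, against 476 and 400 in Apex replicates 1 and 2. VEGFD replicate 1 was again inside the Apex range. The mean signal was 1130 ± 941 in VEGFD arrays and 438 ± 54.1 in Apex arrays (SD, n = 2 each), and the log2 change was 1.04 ± 0.63 (adjusted p = 0.826). Leaving out VEGFD replicate 2 gave 0.085, and leaving out VEGFD replicate 1 gave 2.0, which passed (adjusted p = 0.0142).

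Dusp6 encodes the cytoplasmic phosphatase that acts on ERK in preference to p38 and JNK. It had signals of 255 and 1092 in VEGFD replicates 1 and 2, and 432 and 511 in Apex replicates 1 and 2. The VEGFD arrays lay on opposite sides of the Apex pair, so the group means nearly cancelled: the log2 change was 0.17 ± 0.66 (adjusted p = 0.961). Leaving out VEGFD replicate 2 gave -0.84 (adjusted p = 0.502), and leaving out VEGFD replicate 1 gave 1.19 (adjusted p = 0.0610). The log2 gap between VEGFD replicate 2 and VEGFD replicate 1 was 2.03, and 97.6% of tested genes had a gap of that size or smaller.

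Dusp1 ran the other way. It encodes a nuclear phosphatase that acts on p38 and JNK as well as ERK, and it is an immediate early gene that stress and glucocorticoids also induce. Its signals were 1612 and 453 in VEGFD replicates 1 and 2, against 1316 and 1683 in Apex replicates 1 and 2. VEGFD replicate 2 alone was low, and VEGFD replicate 1 lay inside the Apex range. The log2 change was -0.78 ± 0.60 (adjusted p = 0.829). Leaving out VEGFD replicate 2 gave 0.11, and leaving out VEGFD replicate 1 gave -1.68, which passed (adjusted p = 0.0278).

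The Dusp1 window (chr17:26508473-26508722, GRCm38.p6, minus strand, 5′ to 3′) is shown for comparison with that of Dusp5. Capitals mark the full cAMP response element TGACGTCA and the short site TGACG.
Dusp1 promoter: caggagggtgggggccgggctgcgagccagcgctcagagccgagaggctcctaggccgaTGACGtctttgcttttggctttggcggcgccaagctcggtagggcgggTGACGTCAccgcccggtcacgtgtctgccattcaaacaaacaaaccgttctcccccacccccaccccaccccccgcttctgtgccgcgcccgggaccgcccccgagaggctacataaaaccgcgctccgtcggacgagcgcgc
The full element lay at -143 to -136 and the further short site at -191 to -187. The full element was present in 1.55% of all windows. RefSeq windows were found for 7 of the 9 genes, without Dusp4 and Spry4. Among them the CArG box matched in Dusp5 alone, the full element in Dusp1 alone and TGACG in Dusp1, Dusp5 and Spred2, counting the short site inside the full element. The AP-1 motif TGANTCA, the ETS motif CCGGAAG and the TATA motif TATAAA matched in 0 of the 7 windows, and in 6.75%, 6.91% and 12.4% of all windows. The motifs were chosen after the expression values were seen.

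The Sprouty genes did not share the step on VEGFD replicate 2. Sprouty proteins are docked at the membrane and hold back the path from growth factor receptors to Raf. Spry4 was the member with the smallest unadjusted p. It had signals of 75.6 and 111 in VEGFD replicates 1 and 2, against 161 and 292 in Apex replicates 1 and 2. Both VEGFD arrays lay below both Apex arrays. The mean signal was 93.6 ± 25.3 in VEGFD arrays and 226 ± 92.4 in Apex arrays (SD, n = 2 each). The log2 change was -1.11 ± 0.37 with an unadjusted p of 0.0268 and an adjusted p of 0.823 by limma, so it did not pass. It was the single member at least 2-fold apart without overlap and lower in VEGFD arrays, where 2.79% of all tested genes were. With 1 array left out the log2 change ran from -1.51 (without Apex replicate 1) to -0.71 (without Apex replicate 2), and 9 of the 12 pan-endothelial markers, though not Kdr, Eng or Tek, were highest on Apex replicate 2. Some markers of other cells also lay lower in both VEGFD arrays. All 4 tested adipocyte markers did, with a median log2 change of -1.27. The fibroblast gene Dpt did too, with signals of 204 and 168 in VEGFD arrays against 2725 and 2407 in Apex arrays. The 9 tested fibroblast markers were split, 5 with a higher and 4 with a lower mean in VEGFD arrays (median log2 change 0.046). Among 7 tested smooth muscle and pericyte markers, 4 were higher and 3 lower (median 0.78). Of 6 tested epithelial markers, 5 had a lower mean in VEGFD arrays, with Dsp at -2.24. The part of such cells in the Spry4 value was not tested.

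Another Spry4 probe set above the filter gave 43.1 and 36.6 in VEGFD replicates 1 and 2 against 66.1 and 101 in Apex replicates 1 and 2, again without overlap, a log2 difference of -0.81. The remaining Spry4 probe sets had signals of at most 5.08 on any array and say little about the gene. With the 4 probe sets averaged the log2 change was -0.50.

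Spry1 was higher in VEGFD replicate 1 than elsewhere. Its signals were 139 and 73.5 in VEGFD replicates 1 and 2, against 61.8 and 67.0 in Apex replicates 1 and 2. The groups did not overlap, but VEGFD replicate 2 lay close to the Apex pair. The log2 change was 0.55 ± 0.35 (adjusted p = 0.826), 0.16 without VEGFD replicate 1 and 0.95 without VEGFD replicate 2. Spry1 was the single member whose highest value lay on VEGFD replicate 1.

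Spry2 was nearly level. It had signals of 474 and 456 in VEGFD replicates 1 and 2, and 481 and 509 in Apex replicates 1 and 2. The groups did not overlap, yet the log2 change was -0.087 ± 0.22 (adjusted p = 0.934), and 0.036 with arrays centred on their medians. That centring moved the median of all tested genes by 0.12, and relative to that median Spry2 was at -0.052 under both scalings. Its whole log2 span over the 4 arrays was 0.15, and 1.96% of tested genes had a span that small or smaller. In all, 3 of the 9 members did not overlap between groups, beside 38.5% of all tested genes. Spry1 did so upwards, as did 16.6% of all tested genes, and Spry2 and Spry4 downwards, as did 21.8%.

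Both Spred genes were highest on VEGFD replicate 2. Spred proteins carry an EVH1 domain and a Sprouty-related domain, and Spred1 brings the Ras-inactivating protein neurofibromin to the membrane. Spred2 had signals of 407 and 1101 in VEGFD replicates 1 and 2, against 419 and 372 in Apex replicates 1 and 2. VEGFD replicate 1 lay between the Apex arrays. The log2 change was 0.74 ± 0.48 (adjusted p = 0.826). Leaving out VEGFD replicate 2 gave 0.042, and leaving out VEGFD replicate 1 gave 1.44, which passed (adjusted p = 0.0331).

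Spred1 had signals of 530 and 974 in VEGFD replicates 1 and 2, against 591 and 500 in Apex replicates 1 and 2. The pattern was that of Spred2 at a smaller size. The log2 change was 0.39 ± 0.34 (adjusted p = 0.833). Leaving out VEGFD replicate 2 gave -0.036, and leaving out VEGFD replicate 1 gave 0.82 (adjusted p = 0.137).

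**Figure D2:**
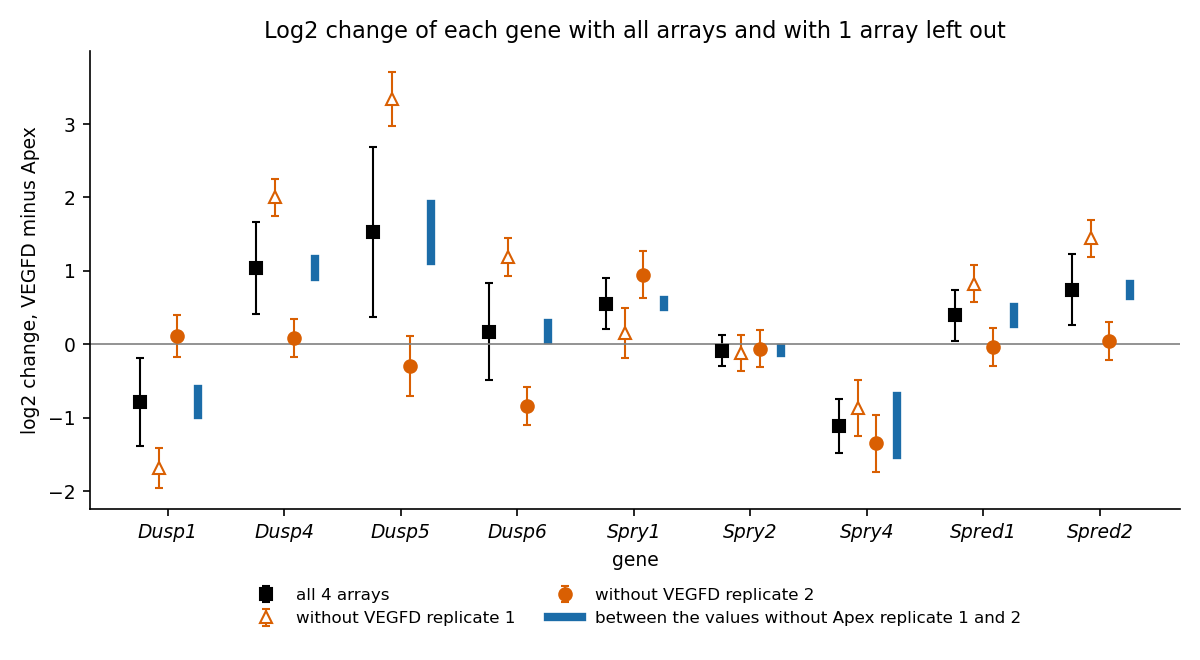
Log2 change (VEGFD minus Apex) of each gene with its standard error, with all 4 arrays (squares), without VEGFD replicate 1 (open triangles) and without VEGFD replicate 2 (circles); blue bars span the values without either Apex array. Without VEGFD replicate 2 the values of Dusp4, Spred1 and Spred2 lie at 0.085, -0.036 and 0.042, while Spry4 stays below 0 under each choice shown.

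The other probe sets of the Spred genes were less uniform in the group difference than in the gap between the VEGFD arrays. Of 8 Spred1 probe sets, 7 passed the filter on dim values, with log2 differences from -0.047 to 0.98, 5 of them above 0. In all 7, VEGFD replicate 2 exceeded VEGFD replicate 1. Of 5 Spred2 probe sets, 3 passed, with differences of 0.74, 0.87 and -0.28, and VEGFD replicate 2 again exceeded VEGFD replicate 1 in each. With all 5 Spred2 probe sets averaged, those below the filter included, the log2 change was 0.17. A probe set below the filter, at -1.20, entered that average. Spred1 probe sets with _s or _x in the name can bind more than a single transcript.

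**Figure D3:**
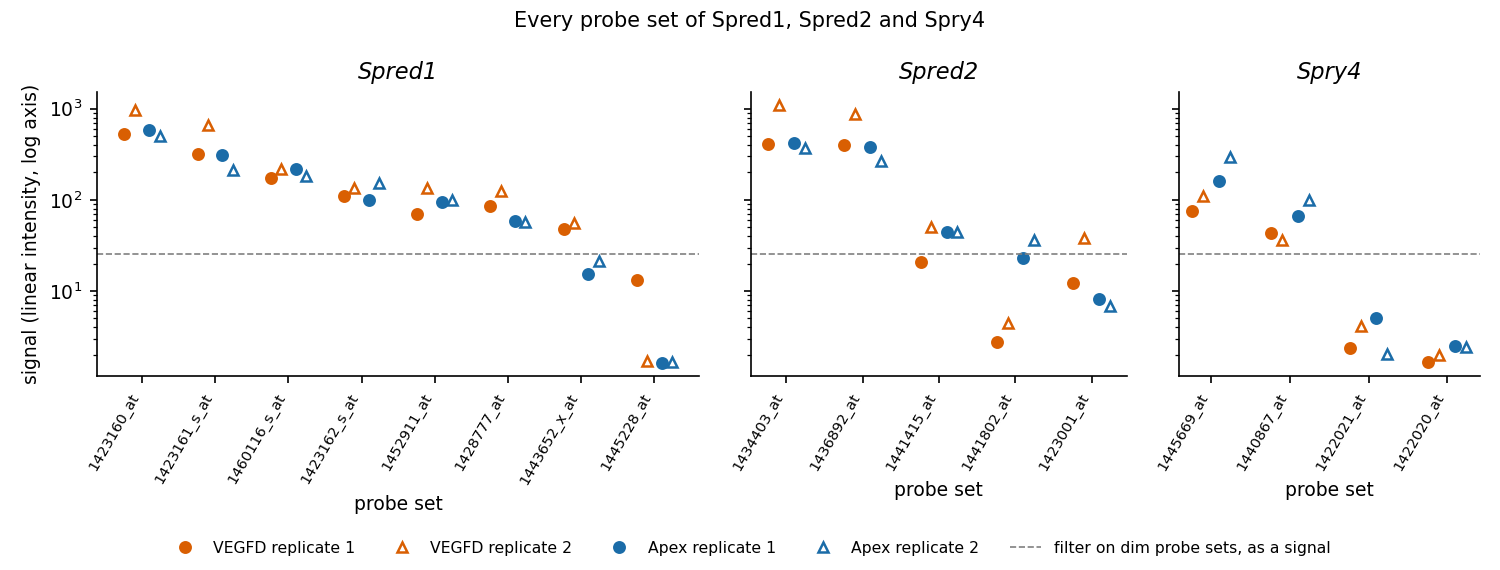
Signal of every probe set of Spred1 (8), Spred2 (5) and Spry4 (4) on each array, on a log axis, with the filter on dim values drawn as a signal of 25.3. The 2 brightest probe sets of each Spred gene are highest on VEGFD replicate 2, which does not hold for the next 2 of Spred1, and the brighter Spry4 probe sets are lower on both VEGFD arrays.

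By a rule that compares each profile over the 4 arrays after centring on its mean and scaling by its SD, Dusp4 and Spred2 were among the nearest 2 genes of each other, at a root mean square difference of 0.0121 SD, and both had Tfdp1, a partner gene of the E2F cell cycle factors, as the nearest. The genes nearest to Dusp6 were Mcm3, a DNA replication gene (0.00931), and Bub1, a mitotic checkpoint gene (0.0257). Bub1 had signals of 11.7 and 357 in VEGFD replicates 1 and 2 and 58.4 and 83.8 in Apex replicates 1 and 2. Nearest to Dusp5 were Ankrd50 (0.00279) and Rrm1, a ribonucleotide reductase gene (0.00761). Nearest to Dusp1 were Atg16l2 (0.0111) and the semaphorin gene Sema3c (0.0172), and nearest to Spry4 were Pet100 (0.0149) and the plexin gene Plxna2 (0.0335). These are the closest of 2802 candidates, the tested genes other than predicted ones that span at least 1 log2 unit, over only 4 points, a description of shape with no test.

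Transcripts that ERK is known to induce were mixed between the groups and, for 10 of 20 tested genes, at least 2-fold apart between the VEGFD arrays. Of the 20 genes, 12 were higher and 8 lower in VEGFD arrays and 0 passed by limma, with a median log2 change of 0.15. Etv5, an ETS factor gene, was at 0.68 ± 0.32, and Ccn1, which encodes a matrix protein, at 0.45 ± 0.20. Ccnd1, the cyclin D1 gene, was at -0.50 ± 0.23, and Egr1, an immediate early transcription factor gene, at -0.58 ± 0.41. VEGFD replicate 2 held the highest value of 12 of the 20 genes.

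VEGFD replicate 2 exceeded VEGFD replicate 1 at least 2-fold for 8 of the 20, Egr1, Egr2, Egr3, Phlda1, Hbegf, Plaur, Klf10 and Vgf, and lay at least 2-fold below it for 2, Fos and Ier3. The matching shares of all tested genes were 5.53% above and 6.56% below, and 4 and 1 of the 9 feedback genes. Plaur, the urokinase receptor gene, had signals of 116 and 580 in VEGFD replicates 1 and 2 and 101 and 93.8 in Apex replicates 1 and 2. Hbegf, which encodes a ligand of the EGF receptor, had 204 and 1083 in VEGFD replicates 1 and 2 and 215 and 448 in Apex replicates 1 and 2. Fos, like Dusp1, was low on VEGFD replicate 2, with signals of 1793 and 248 in VEGFD replicates 1 and 2 and 972 and 473 in Apex replicates 1 and 2. The Apex arrays also lay at least 2-fold apart for some of these genes, Hbegf and Fos among them, as for 4.98% of all tested genes. In Apex replicates 1 and 2, Egr2 had signals of 275 and 127, Egr3 18.5 and 53.4, and Vgf 11.9 and 67.1. Egr1, Phlda1, Plaur, Klf10 and Ier3 lay less than 2-fold apart there. The genes of this paragraph were named for their gap after the values were seen. Of the 10 smooth muscle and pericyte markers, 6 were higher and 4 lower on VEGFD replicate 2 than on VEGFD replicate 1. The contractile genes Tagln and Myl9 had signals of 5553 and 2387 on VEGFD replicate 2, against 1632 and 638 on VEGFD replicate 1. Des had 51.1 against 10.1, and the pericyte gene Pdgfrb 1268 against 2123. The part of such cells in the values of VEGFD replicate 2 was not tested.

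**Figure D4:**
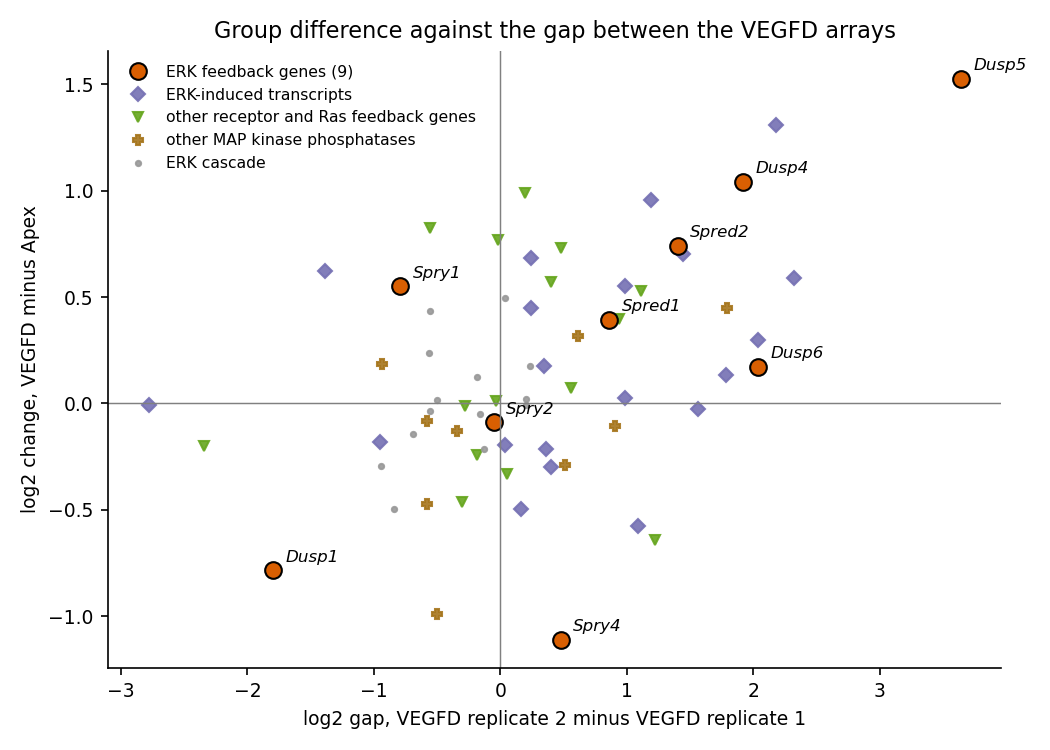
Log2 change between groups (VEGFD minus Apex, vertical) against the log2 gap between VEGFD replicate 2 and VEGFD replicate 1 (horizontal), for the 9 ERK feedback genes (named, orange) and 4 other lists of the pathway. Dusp5, at a gap of 3.64, Dusp6, Dusp4 and Spred2 lie to the right with several ERK-induced transcripts. Genes of the cascade itself stay within a gap of less than 1, and 12.1% of all tested genes had a gap of at least 1 in size.

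The kinases and adaptors that carry the signal differed little. Of 14 tested genes of the ERK cascade, 7 were higher and 7 lower and 0 passed by limma, with a median log2 change of 0.0044. The VEGFD arrays lay at least 2-fold apart for 0 of the 14, against 12.1% of all tested genes, so few were to be looked for among 14. Araf was at 0.50 ± 0.23, Map2k1, which encodes MEK1, at 0.43 ± 0.27, the Ras relative Mras at -0.50 ± 0.45 and the scaffold gene Ksr1 at -0.21 ± 0.25. Of 8 tested p38 and JNK pathway kinases, 6 were higher and 2 lower and 0 passed, with a median of 0.17. Mapk11 and Mapk13, which encode forms of p38, were at -1.07 ± 0.29 and -0.93 ± 0.33, and Map2k4 and Mapk8 were at 0.29 ± 0.24 and 0.27 ± 0.23.

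Other brakes on the pathway were measured alongside. Of 9 tested MAP kinase phosphatases outside the family above, 3 were higher and 6 lower and 0 passed by limma, with a median log2 change of -0.11. Dusp14 was at -0.99 ± 0.29, Dusp3 at -0.47 ± 0.31, Dusp2 at 0.32 ± 0.58 and Dusp10, a p38 and JNK phosphatase gene, at 0.45 ± 0.60. Dusp10 had signals of 90.2 and 352 in VEGFD replicates 1 and 2 and 114 and 145 in Apex replicates 1 and 2, so it too was high on VEGFD replicate 2 alone. It was the 1 gene of the 9 for which VEGFD replicate 2 exceeded VEGFD replicate 1 at least 2-fold, and 0 lay that far below. The shares of all tested genes were 5.53% above and 6.56% below.

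Of 15 tested receptor and Ras feedback genes, 9 were higher and 6 lower and 0 passed by limma, with a median log2 change of 0.074. Errfi1, which encodes an inhibitor of the EGF receptor, had signals of 3523 and 4040 in VEGFD replicates 1 and 2 against 2189 and 1633 in Apex replicates 1 and 2. Here both VEGFD arrays were high, and the log2 change was 0.99 ± 0.24 (unadjusted p = 0.00787, adjusted p = 0.823). Rasa2, a Ras GTPase-activating protein gene, was at 0.77 ± 0.27, Dab2ip, another such gene, at -0.46 ± 0.25, and Lrig1, a receptor inhibitor gene, at -0.64 ± 0.48. VEGFD replicate 2 exceeded VEGFD replicate 1 at least 2-fold for 2 of the 15, Rasa1 and Lrig1, and lay that far below it for 1, Socs3. The shares of all tested genes were 5.53% and 6.56%. Rasa1 had signals of 847 and 1850 in VEGFD replicates 1 and 2 and 879 and 850 in Apex replicates 1 and 2.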

How the data were processed

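Biotin-labelled RNA was hybridised to 4 Affymetrix mouse arrays, 1 per sample, per the labels' protocols. The deposited intensity values are linear signals per probe set, and each array had a mean of 150.001 after trimming 2% of probe sets at each end, as computed from them. The algorithm behind the signals is not named in the labels, and no detection calls were used. Of 45101 probe sets, 34945 had 1 gene symbol in the platform annotation, 932 several and 9160 none, and 64 were controls. Signals were taken as log2(signal + 16), and genes were tested when the mean of their brightest probe set reached 5.37, the median over probe sets other than controls. The comparison used limma 3.58.1 (R 4.3.3; lmFit, eBayes with trend), two-sided, with Benjamini-Hochberg adjustment over 11677 genes and a threshold of 0.05. All 9 members passed the filter. The number of arrays limits the precision.

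The members and gene lists were chosen with earlier results of these data known. Every member was named. From the other pathway lists the 2 higher and 2 lower genes with the smallest p were named, since none passed, and genes named for a gap between the VEGFD arrays were added after their values were seen. Marker genes were named after their values were seen, to show the range over arrays or a difference between groups. The nearest 2 profiles were taken for members spanning at least 1 log2 unit, leaving out predicted genes. On simulated data for VEGFD against Apex (11677 genes, 20 runs, 200 changed genes each) the procedure recovered 0.70% of 2-fold, 34.8% of 4-fold, 78.0% of 8-fold and 91.3% of 16-fold changes, and made 5.4 false calls a run on average. In all, 14 alternatives were run, among them scaling, pseudocounts of 1 and 64, filters, averaged probe sets, the replicate number as a block, and each array left out.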

Additional observations from a re-analysis of the deposited data

How the results depend on the processing

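No member passed in the 10 alternatives that keep all 4 arrays. With 1 array left out, the number of members that passed ran from 0 to 4 (Dusp1, Dusp4, Dusp5 and Spred2, without VEGFD replicate 1), and the number of all genes from 0 to 372. The log2 change ran from -1.68 to 0.11 for Dusp1, from -0.29 to 3.34 for Dusp5, from -0.84 to 1.19 for Dusp6 and from -0.036 to 0.82 for Spred1, with the sign turned without VEGFD replicate 2 in each case. Spry2 turned to 0.036 with arrays centred on their medians. Spry4 kept its direction in all 14 alternatives, from -1.51 to -0.50. Spry1 was not tested with the filter at the 75th percentile.

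With the replicate number as a block, 6 genes passed, all lower in VEGFD arrays, and 0 members (Spry4 adjusted p = 0.376). The labels do not say that same-numbered arrays pair, and the correlation over genes of their deviations from the group means was 0.197. The genes 2-fold apart without overlap numbered 453 (127 higher, 326 lower), 231 with a pseudocount of 64, 226 with the filter at the 75th percentile, and 442 to 1348 with 1 array left out. With arrays centred on their medians they were 431 (192 higher, 239 lower). The cause of these shifts was not tested. Signals below the filter have no stated limit against background.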
